A study of Mus musculus with 24 samples.

Results

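Replication-dependent histone genes were followed by their symbols, Hist1h, Hist2h, Hist3h or Hist4h, in the hippocampal counts. Of 69 such symbols, apart from 1 with a pseudogene suffix (-ps), 18 had at least 10 counts in 3 or more of the 22 libraries that passed the study's quality control, among 49568 gene symbols in all. Of the linker histone H1 symbols 2 of 6 met this rule, of H2A 2 of 20, of H2B 6 of 18, of H3 2 of 12 and of H4 6 of 13. The 51 others stayed under it, and 11 of these had no count in any of the 22 libraries. Closest inside the rule were Hist1h2bn and Hist1h4c, each with 10 counts or more in 3 libraries, and closest outside were Hist1h1d, Hist1h2ad and Hist4h4, each in 2 libraries.

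The libraries came from the whole hippocampus of male mice aged 12 weeks by the labels, on a background given as C57-Bl/6 in the series text and as C57-Bl/6J in the study's methods. WT mice, or mice homozygous for a kinase-dead MSK1 allele (MSK1 KD), were kept in standard housing (SH) or reared in an enriched environment (EE) of large cages with a running wheel and toys, which their mothers entered while pregnant. The MSK1 KD allele is a knock-in point mutation of the endogenous gene that inactivates the N-terminal kinase domain. WT and MSK1 KD mice were bred as separate lines, with backcrossing that the study says avoided their divergence. Genotype therefore cannot be told apart from line here. Enriched males shared large cages, and the cage or litter of each library was not taken into account. Each of the 4 groups had 6 libraries, and nothing in the sources used here says whether hippocampi were pooled, so p-values measure only the spread between libraries.

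Histone genes of this kind supply chromatin protein in S phase. Their usual mRNA has no poly(A) tail and ends just after a stem-loop that binds SLBP, but some of these genes also make polyadenylated mRNA, above all in cells that no longer divide. RNA was selected here on poly-T beads, which retain polyadenylated RNA, and whether the histone reads came from tailed molecules was not tested. MSK1 itself is a nuclear kinase that phosphorylates histone H3 and the transcription factor CREB.

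The study kept 17 libraries, which were 5 WT SH, 3 WT EE, 5 KD SH and 4 KD EE. It removed library 2 (KD SH), library 9 (KD EE), library 12 (WT SH) and libraries 31B and 35A (WT EE) for poor agreement within their groups. Libraries 33B (WT EE) and 34B (KD EE) were removed for quality, with ribosomal RNA seen in both and the larger share in 34B. Removal for poor agreement can narrow the spread within groups, so standard errors (SE) and p-values from the 17 libraries may be too small. Counts on genes ran from 13003876 to 54292242 per library in the 17 and from 8911999 to 56752074 in the 22. A floor of 3 counts stood for 0.0529 to 0.337 CPM in the 22 libraries and covers counting error only. The 8 hippocampal neuron markers checked, among them Slc17a7 and Prox1, summed to between 5702 and 7409 CPM in every library of the 22, with none at 0.

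Annotated 3′ ends were compared between the 18 genes and the 51 symbols under the count rule. In the GENCODE M21 transcripts (GRCm38), the stem-loop GGCNCTTTTCAGNGCC, searched on the transcript's own strand, was present in 11 of the 18 genes and in 22 of the 51 other symbols. After it, the annotated transcript ran on for more than 100 bases in 10 of the 11 genes, with a median of 752 bases (46 to 2010), but in 6 of the 22 others, with a median of 36 bases. Median exon length was 1088 bases in the 18 genes and 488 in the 51 symbols. A rule on raw counts favors longer transcripts, so this contrast cannot be told apart from the rule. Stem-loops of 6 genes are shown in capitals below, with 6 bases on each side, because they carry the signal for the tailless end that the annotated transcripts pass. Hist1h1c and Hist1h1e code for linker histones, Hist1h2be for H2B, Hist2h3c2 for H3, and Hist1h4c and Hist1h4h for H4.
Hist1h1c: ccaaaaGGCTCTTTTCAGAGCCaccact
Hist1h1e: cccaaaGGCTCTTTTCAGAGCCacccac
Hist1h2be: accaaaGGCTCTTTTCAGAGCCacccaa
Hist2h3c2: cacaaaGGCTCTTTTCAGAGCCaccaca
Hist1h4c: acaaaaGGCCCTTTTCAGGGCCacccac
Hist1h4h: accaaaGGCCCTTTTCAGGGCCgcccac

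In Hist1h1c the stem-loop lay at bases 705 to 720 of a transcript of 1560 bases, so 840 bases followed it. In Hist1h1e 1153 bases followed, in Hist1h2be 1861, in Hist2h3c2 377 and in Hist1h4c 454. Only Hist1h4h, with 46 bases after the stem-loop, ended within 100 bases of it among the 11. The 7 genes without a match in their annotated transcript were Hist1h2bc, Hist1h2bn, Hist2h2be, Hist1h4i, Hist1h4j, Hist1h4k and Hist2h4. No match says only that these letters were not in the annotated transcript.

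Of the 18 genes, 13 lie on chromosome 13, 3 on chromosome 3 and 2 on chromosome 11. Hist1h1c is an intronless gene on the plus strand at chr13:23738808-23740367 and overlaps no other annotated exon. Hist1h1e lies on the minus strand at chr13:23620629-23622558, and its exon overlaps exons of Hist1h2be (chr13:23583670-23621124, minus strand, 3 transcripts of which 2 are spliced) and Gm11398. Hist1h2bc, at chr13:23684199-23692908 on the plus strand, has 1 annotated transcript, which is spliced. Since counting ignored strand and dropped ambiguous reads, the counts of Hist1h1e and Hist1h2be do not hold the reads of their shared stretch. The same limit holds for Hist3h2a, which overlaps exons of Trim17 and Gm44313, and for Hist1h2ac, which overlaps exons of Gm24991 and Gm44350. Copies of one another are a further limit. Of the windows of 100 bases in each gene's exons, between 35.7% and 100% were found in no other symbol of the set (median 83.0%), and Hist2h3c2, Hist1h4k and Hist1h2bn were under 50%, so their values are uncertain.

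Promoters of 300 bases, from 250 before to 50 after the start, were matched in RefSeq (GRCm38.p6) for 15 of the 18 genes. CCAAT, on either strand, was in 11 of the 15 and in 37.4% of 32851 promoters, and TATAAA in 9 of the 15 and in 13.6%. AAACACA, the element known from H1 promoters, was in 2 of the 15 and in 7.18% of all promoters, and the 2 were Hist1h1c and Hist1h1e. The CREB element TGACGTCA was in 1 of the 15, Hist1h4h, and in 1.79% of all promoters. The promoters of both H1 genes are printed with AAACACA and CCAAT in capitals. They were chosen because these genes had the largest log2 fold changes in WT in the 17 libraries. In the 22 libraries Hist1h1e was again highest (1.29), but Hist1h1c (0.87) was under Hist1h4k (0.94). In MSK1 KD neither H1 gene was highest. AAACACA began 112 bases before the start in Hist1h1c and 115 in Hist1h1e, and CCAAT began 54 and 52 bases before it.
Hist1h1c, chr13:23738557-23738856, plus strand: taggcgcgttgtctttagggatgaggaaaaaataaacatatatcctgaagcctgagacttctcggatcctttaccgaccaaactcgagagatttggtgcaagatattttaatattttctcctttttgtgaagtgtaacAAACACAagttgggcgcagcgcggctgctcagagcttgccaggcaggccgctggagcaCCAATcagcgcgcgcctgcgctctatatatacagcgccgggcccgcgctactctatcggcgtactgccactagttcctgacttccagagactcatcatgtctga
Hist1h1e, chr13:23622509-23622808, minus strand: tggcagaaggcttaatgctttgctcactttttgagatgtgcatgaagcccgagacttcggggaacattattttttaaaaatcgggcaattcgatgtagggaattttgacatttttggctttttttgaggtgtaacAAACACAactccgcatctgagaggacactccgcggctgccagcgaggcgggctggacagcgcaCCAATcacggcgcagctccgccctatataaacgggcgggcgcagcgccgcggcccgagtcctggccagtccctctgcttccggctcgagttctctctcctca

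A few genes held most of the histone counts. Over the 22 libraries Hist1h2bc averaged 26.6 CPM (counts relative to the library total, scaled by TMM) and Hist1h1c 20.9 CPM, and together they made up 48.9% of the summed CPM of the 18 genes. Hist3h2ba and Hist2h2be (H2B) and Hist3h2a (H2A) followed at 11.2, 10.8 and 10.6 CPM, and with them the share was 82.4%. Per kilobase of annotated exon the highest levels were those of Hist1h2bc (23.0 CPM per kb), Hist3h2ba (18.2) and Hist1h1c (13.4). Next were Hist3h2a at 4.93 and Hist2h2be at 4.12 CPM per kb. At the other end, Hist1h1e stood at 0.467, Hist1h4c at 0.144 and Hist1h2ac at 0.0827 CPM per kb. Full exon length was used, so levels of genes that overlap other exons, as Hist1h1e, Hist1h2ac and Hist3h2a do, may be too low.

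The first question was whether enriched housing went with other histone mRNA levels in WT mice. In the 17 libraries, 4 of the 16 genes that passed the filter on low counts were called higher in WT EE than in WT SH, with an adjusted p up to 0.05 and a log2 fold change from 0.38 upwards. Of all 18701 genes tested, 3.48% were called higher in the same way. The 4 were both H1 genes, Hist1h1c and Hist1h1e, and the H2B genes Hist1h2bc and Hist1h2be. All 16 fold changes were above 0, with a median log2 fold change of 0.65 against -0.00 over all genes. At an unadjusted p under 0.05 there were 7 of 16, against 13.7% of all genes. Hist1h2bn and Hist1h4c did not pass the filter.

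Hist1h1c codes for H1.2, a linker histone that binds the nucleosome where DNA enters and leaves. Its level in WT EE was 32.8 CPM in library 16, 49.4 in library 17 and 39.0 in library 33A, but 15.1 in library 31B and 14.7 in library 35A. The 6 WT SH libraries lay between 14.1 and 19.5 CPM, with a median of 16.2. The 3 WT EE libraries of the study thus lay above every WT SH library, while the 2 it removed lay inside their range. In the 17 libraries, the means were 40.4 ± 8.37 CPM (SD, n = 3) and 15.8 ± 1.85 (SD, n = 5), with a log2 fold change of 1.35 ± 0.17 (SE) and an adjusted p of 1.5e-05 (edgeR quasi-likelihood test). With all 22 libraries the log2 fold change was 0.87 ± 0.24 (SE) and its adjusted p was 0.363. The exact two-sided permutation test of its log2 CPM gave p = 0.0357 in the 17 libraries, the smallest it allows, and p = 0.0909 in the 22 (adjusted over 4 comparisons, 0.114 and 0.364).

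Hist1h1e codes for H1.4, another linker histone. It reached 1.48, 2.88 and 2.01 CPM in WT EE libraries 16, 17 and 33A, 1.16 in 31B and 0.848 in 35A. WT SH libraries lay between 0.458 and 0.869 CPM, with a median of 0.659, so that library 35A alone of WT EE overlapped them. The log2 fold change was 1.56 ± 0.37 (SE) with an adjusted p of 0.0142 by edgeR in the 17 libraries, and 1.29 ± 0.35 (adjusted p 0.363) in the 22. Without WT EE library 17 the adjusted p was 0.135.

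In WT, both H2B genes kept a gap between the housing conditions over all 11 WT libraries. Hist1h2bc had 33.6, 39.6 and 29.6 CPM in libraries 16, 17 and 33A, and 25.1 and 26.3 in 31B and 35A. WT SH libraries ran from 21.3 to 24.9 CPM, with a median of 23.2. Hist1h2be had 7.07, 9.85 and 7.67 CPM in libraries 16, 17 and 33A, and 6.97 and 7.36 in 31B and 35A. WT SH libraries ran from 4.39 to 5.52 CPM (median 4.93), so neither gene overlapped between WT EE and WT SH. In the 17 libraries the log2 fold change of Hist1h2bc was 0.57 ± 0.12 (SE, adjusted p 0.00315) and that of Hist1h2be 0.72 ± 0.18 (adjusted p 0.0196). In the 22 libraries these were 0.42 ± 0.11 (adjusted p 0.366) and 0.66 ± 0.15 (adjusted p 0.203). Without WT EE library 17 neither was called (adjusted p 0.0506 and 0.198), and without WT SH library 15 the adjusted p of Hist1h2be was 0.0553.

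**Figure D1:**
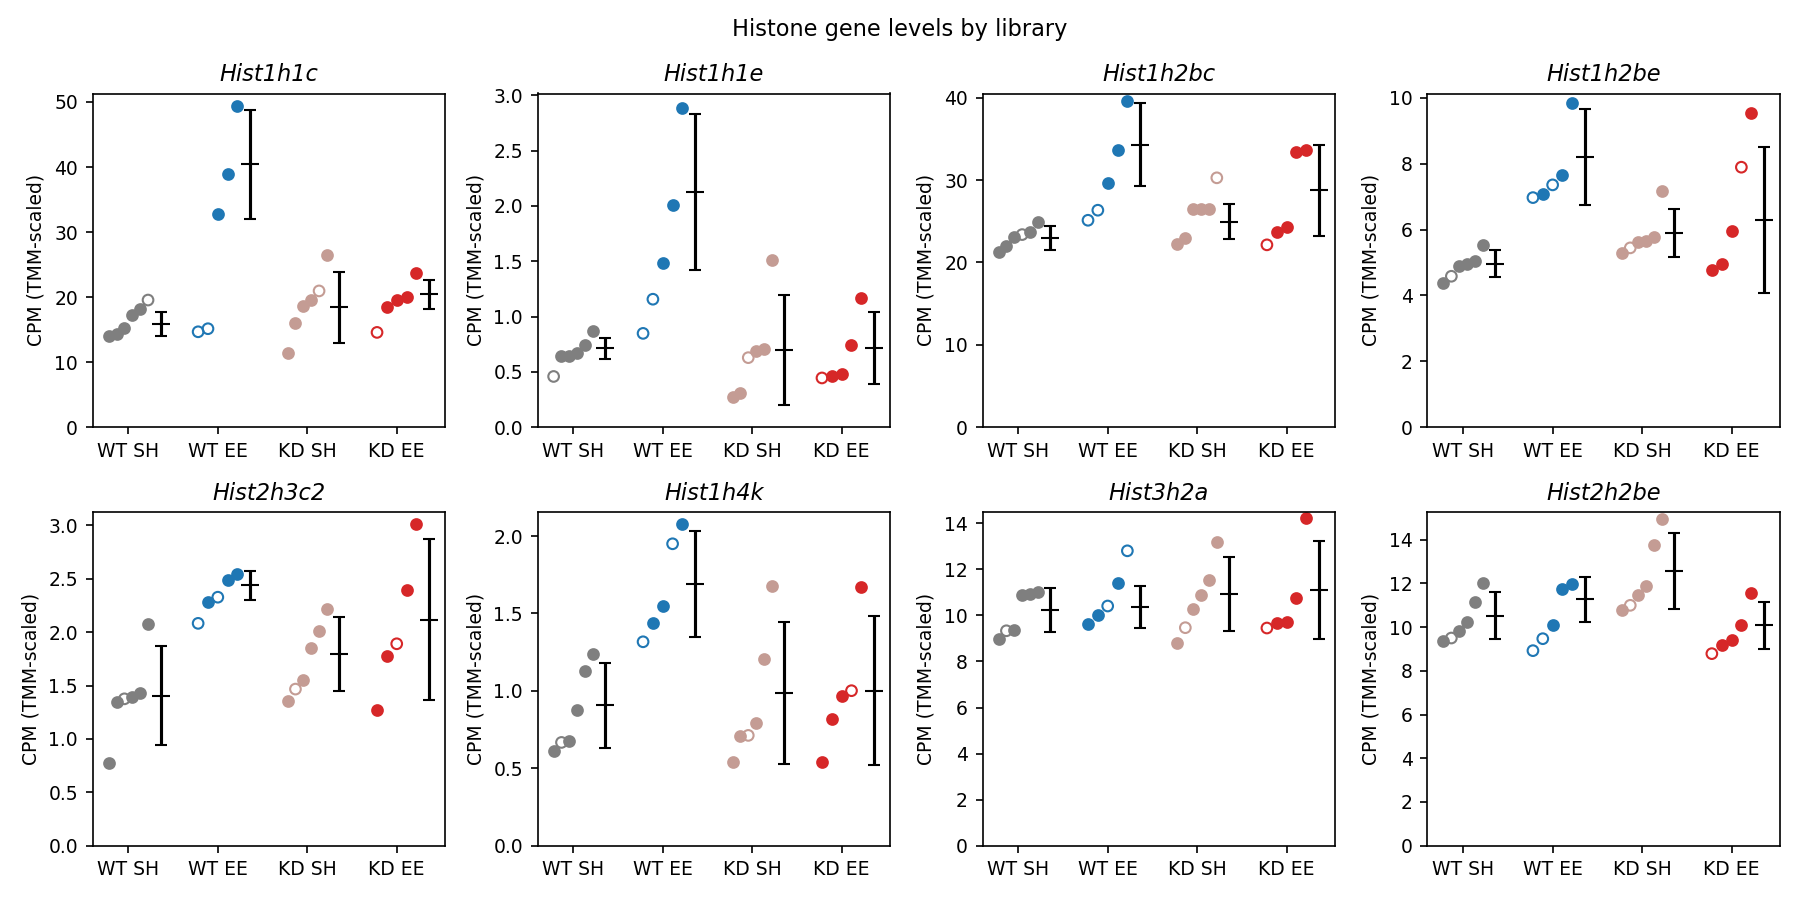
CPM scaled by TMM (y axis) of 8 histone genes in each library of the 4 groups. Filled points are libraries the study used, open points are those it removed, and black marks are the mean and SD of the filled points. In WT EE the 2 open points of Hist1h1c lie with WT SH, at 14.7 and 15.1 CPM, and those of Hist1h2be lie above every WT SH library, at 6.97 and 7.36 CPM.

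Over the 22 libraries no gene of the 15 tested was called in WT by edgeR, as was the case for 0% of all 18482 genes. At an unadjusted p under 0.05 there were again 7 of 15, against 8.65% of all genes, and all 15 fold changes were above 0, with a median log2 fold change of 0.50. The lowest adjusted p was that of Hist1h2be, 0.203. Every WT EE library lay above every WT SH library for 4 of the 15, against 0.46% of all genes tested. These were Hist1h2bc, Hist1h2be, Hist2h3c2 and Hist1h4k. In the 17 libraries the same held for 6 of 16, against 8.07% of all genes, namely those 4, Hist1h1c and Hist1h1e.

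Hist2h3c2 (H3) had 2.49, 2.28 and 2.54 CPM in WT EE libraries 16, 17 and 33A, 2.08 in 31B and 2.33 in 35A. WT SH libraries lay between 0.770 and 2.08 CPM (median 1.38), and the highest of them, library 13, fell short of library 31B by less than the rounding shows. Its log2 fold change was 0.78 ± 0.26 (SE, adjusted p 0.122) in the 17 libraries and 0.74 ± 0.21 (adjusted p 0.385) in the 22. Hist1h4k (H4) had 1.55, 1.44 and 2.08 CPM in libraries 16, 17 and 33A, and 1.95 and 1.32 in 31B and 35A, against 0.610 to 1.24 in WT SH (median 0.775). Its log2 fold change was 0.91 ± 0.33 (adjusted p 0.172) and 0.94 ± 0.27 (adjusted p 0.399). Less than 50% of the windows of either gene are its own. Hist1h3d, the other H3 gene, was higher in libraries 31B and 35A (0.892 and 0.884 CPM) than in 16, 17 and 33A (0.472, 0.681 and 0.309), with WT SH between 0.202 and 0.542 CPM.

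None of the remaining members was called in WT. Of H2A, Hist3h2a averaged 10.4 ± 0.932 CPM (SD) in the 3 WT EE libraries and 10.2 ± 0.972 in the 5 of WT SH, with a log2 fold change of 0.02 ± 0.13 (SE). Hist1h2ac, near the floor in some libraries, had a log2 fold change of 0.12 ± 0.59. Of H2B, Hist2h2be had a log2 fold change of 0.09 ± 0.12, Hist3h2ba of 0.24 ± 0.12 and Hist1h2bg of 0.73 ± 0.44. Of H4, Hist2h4 had 0.06 ± 0.23, while Hist1h4i, with an unadjusted p of 0.0208, had 0.58 ± 0.23 and an adjusted p of 0.235. Hist1h4h and Hist1h4j had log2 fold changes of 0.71 ± 0.35 and 0.98 ± 0.52, larger than that of Hist1h2bc but with wider errors.

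The second question was whether the same housing went with other levels in MSK1 KD mice. No histone gene of the 16 was called by edgeR between KD EE and KD SH, against 1.74% of all genes, and none was called by DESeq2, against 2.25%. At an unadjusted p under 0.05 there were 3 of 16, against 11.3% of all genes. The median log2 fold change was 0.11, and 12 of the 16 were above 0.

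Hist1h1c had 19.9, 18.5, 19.6 and 23.6 CPM in KD EE libraries 7, 8, 32A and 36A, and 14.6 in the removed library 9. KD SH libraries lay between 11.3 and 26.5 CPM, with a median of 19.1, so that all KD EE libraries lay inside that range. The log2 fold change was 0.13 ± 0.16 (SE, adjusted p 0.806) in the 17 libraries and 0.03 ± 0.24 in the 22. Hist1h2bc had 33.4, 24.3, 23.7 and 33.6 CPM in libraries 7, 8, 32A and 36A, and 22.1 in library 9, against 22.2 to 30.3 (median 26.4) in KD SH. Hist1h2be reached 9.54 CPM in library 36A and 7.90 in library 9, but stood at 5.95, 4.94 and 4.79 in 7, 8 and 32A, with KD SH between 5.30 and 7.17.

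The 3 genes with the lowest p in MSK1 KD mice were Hist1h4i, Hist2h2be and Hist1h3d. Hist1h4i (H4) averaged 2.03 ± 0.331 CPM (SD, n = 4) in KD EE and 1.28 ± 0.248 (SD, n = 5) in KD SH, with a log2 fold change of 0.64 ± 0.22 and an adjusted p of 0.218. It was the 1 gene of the 16 whose KD EE libraries all lay above those of KD SH in the 17 libraries, against 2.12% of all genes. In the 22 libraries there was none (0.233% of all genes). Hist2h2be (H2B) averaged 10.1 ± 1.08 CPM in KD EE and 12.6 ± 1.74 in KD SH, which gave -0.31 ± 0.11 on the log2 scale (adjusted p 0.227), and Hist1h3d had 0.95 ± 0.38 (adjusted p 0.323).

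**Figure D2:**
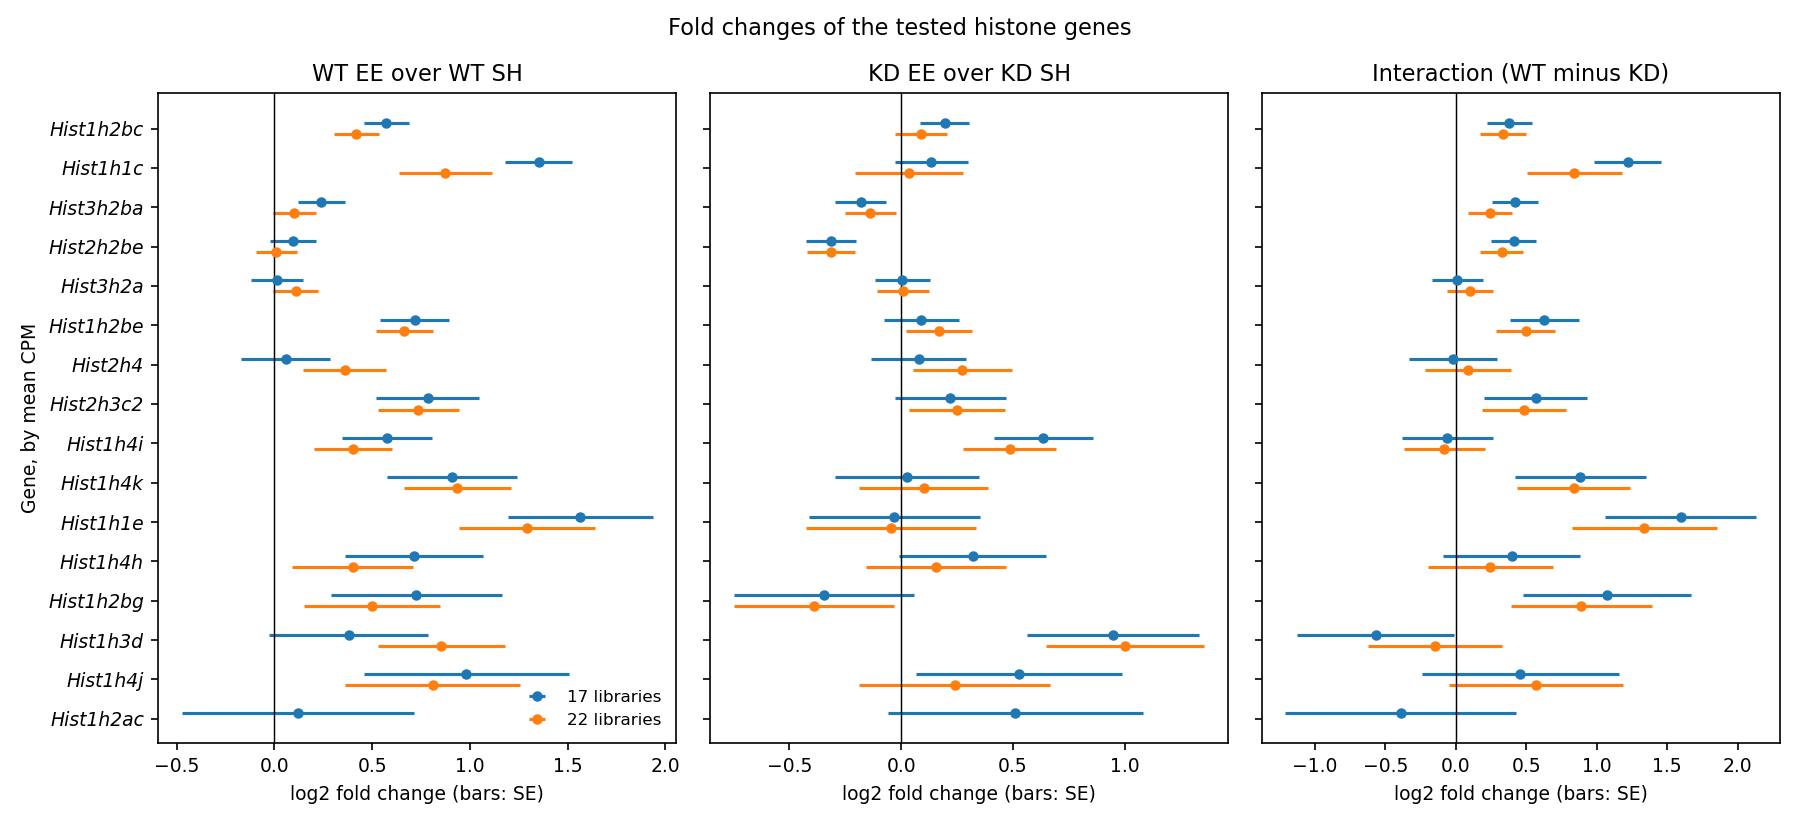
Log2 fold changes (x axis, bars are SE) of the tested histone genes, ordered by mean CPM, for EE over SH in WT, EE over SH in MSK1 KD, and the interaction. Blue is the fit of 17 libraries and orange that of 22. In WT every point is above 0, and that of Hist1h1c moves from 1.35 to 0.87 with the 5 removed libraries.

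The third question was whether the genotypes differed within a housing condition. In standard housing no histone gene was called by edgeR, as were 0% of all genes. At an unadjusted p under 0.05 there was 1 of 16, Hist2h2be, against 4.95% of all genes, and DESeq2 also called no histone gene (0.016% of all genes). The log2 fold change of Hist2h2be, WT over MSK1 KD, was -0.26 ± 0.10 (SE, adjusted p 0.881), with 10.5 ± 1.07 CPM (SD, n = 5) for WT SH and 12.6 ± 1.74 (SD, n = 5) for KD SH. Hist1h2bg and Hist1h2be followed by p, with log2 fold changes of -0.72 ± 0.38 and -0.26 ± 0.16. For Hist1h1c it was -0.24 ± 0.15 (adjusted p 0.881), and the exact two-sided permutation test gave p = 0.460 in the 17 libraries.

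In enriched housing no histone gene was called by edgeR either, against 0.00535% of all genes, which is 1 gene. At an unadjusted p under 0.05 there were 4 of 16, Hist1h1c, Hist3h2ba, Hist1h1e and Hist1h2bc, against 6.4% of all genes. Hist1h1c had a log2 fold change of WT over MSK1 KD of 0.98 ± 0.18 (SE) with an adjusted p of 0.128 by edgeR, whereas DESeq2 called it at an adjusted p of 0.000745, as 1 of 18 genes called (0.0963% of all genes). The exact permutation test of the 17 libraries gave p = 0.0571, the smallest that 3 against 4 libraries allow. Hist3h2ba (H2B) had 0.52 ± 0.13 (adjusted p 0.355), from 13.6 ± 2.40 CPM in WT EE and 9.50 ± 1.13 in KD EE, and Hist1h1e 1.51 ± 0.40 (adjusted p 0.411). For Hist1h1c, Hist1h1e and Hist3h2ba all 3 WT EE libraries lay above all 4 KD EE libraries, against 4.06% of all genes. With the 22 libraries no gene of the 15 was so placed (0.173% of all genes), and the log2 fold change of Hist1h1c was 0.63.

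The difference between the 2 housing effects was tested as the interaction of genotype and housing. No histone gene was called by edgeR, and neither was any other gene (0%). At an unadjusted p under 0.05 there were 6 of 16, against 5.51% of all genes, and in the 22 libraries 5 of 15, against 2.04%. Hist1h1c had an interaction of 1.22 ± 0.24 on the log2 scale (SE), with an unadjusted p of 4.1e-05 and an adjusted p of 0.384. DESeq2 called Hist1h1c alone of these genes, at an adjusted p of 0.00526, and 2 genes in all (0.0107%). Hist1h1e had 1.60 ± 0.54, Hist1h2be 0.63 ± 0.25 and Hist3h2ba 0.42 ± 0.17, each at an adjusted p of 0.875 by edgeR.

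Summed by class, H1, made up mostly of Hist1h1c, showed the widest spread between groups. In the 17 libraries the 2 H1 genes summed to 42.5 ± 9.08 CPM (SD, n = 3) in WT EE, 16.5 ± 1.94 (n = 5) in WT SH, 21.2 ± 2.48 (n = 4) in KD EE and 19.1 ± 5.95 (n = 5) in KD SH. The 6 H2B genes summed to 68.2 ± 9.66 CPM in WT EE, 50.4 ± 2.28 in WT SH, 55.3 ± 7.74 in KD EE and 54.8 ± 3.71 in KD SH. The H2A sum lay at 10.6 ± 0.852, 10.4 ± 0.985, 11.4 ± 2.28 and 11.1 ± 1.61 CPM in the same order, closer together than its spread. H3 summed to 2.93 ± 0.0651 CPM in WT EE and 1.77 ± 0.485 in WT SH, and H4 to 8.29 ± 1.38 and 5.83 ± 0.252.

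The removed WT EE libraries differed by class in where they lay. In WT EE libraries 31B and 35A the H1 sum was 16.3 and 15.5 CPM, within the 14.7 to 20.0 of WT SH. Most of each H1 sum was Hist1h1c, at 15.1 and 14.7 CPM. The other H1 gene, Hist1h1e, was at 1.16 CPM in 31B, above the highest WT SH value of 0.869, and at 0.848 in 35A. The H4 sums of 31B and 35A were 8.16 and 8.32 CPM, above the highest WT SH library at 6.22. Their H3 sums, 2.97 and 3.21, were above the highest at 2.40. The H2B sums, both 53.6, lay just above the highest WT SH value of 52.5 CPM. Thus H2B, H3 and H4 sums did not overlap between the 5 WT EE and the 6 WT SH libraries, whereas H1 and H2A sums did. No share over all genes was set beside these sums. Within the H4 sum, Hist2h4 stood at 3.30 and 4.00 CPM in 31B and 35A, above the highest WT SH value of 2.89. In libraries 16, 17 and 33A it was at 2.32, 1.96 and 2.74 CPM, not above that value. Hist2h4 was thus high in the removed libraries only, whereas Hist1h4k was above every WT SH library in all 5. With Hist2h3c2, Hist1h4k and Hist1h2bn left out, because under 50% of their windows are their own, the mean H3 sum of the 22 libraries fell to 0.648 CPM in WT EE and 0.359 in WT SH, and that of H4 to 6.60 and 4.93. The H3 sum is then Hist1h3d alone, whose WT EE and WT SH libraries overlapped.

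**Figure D3:**
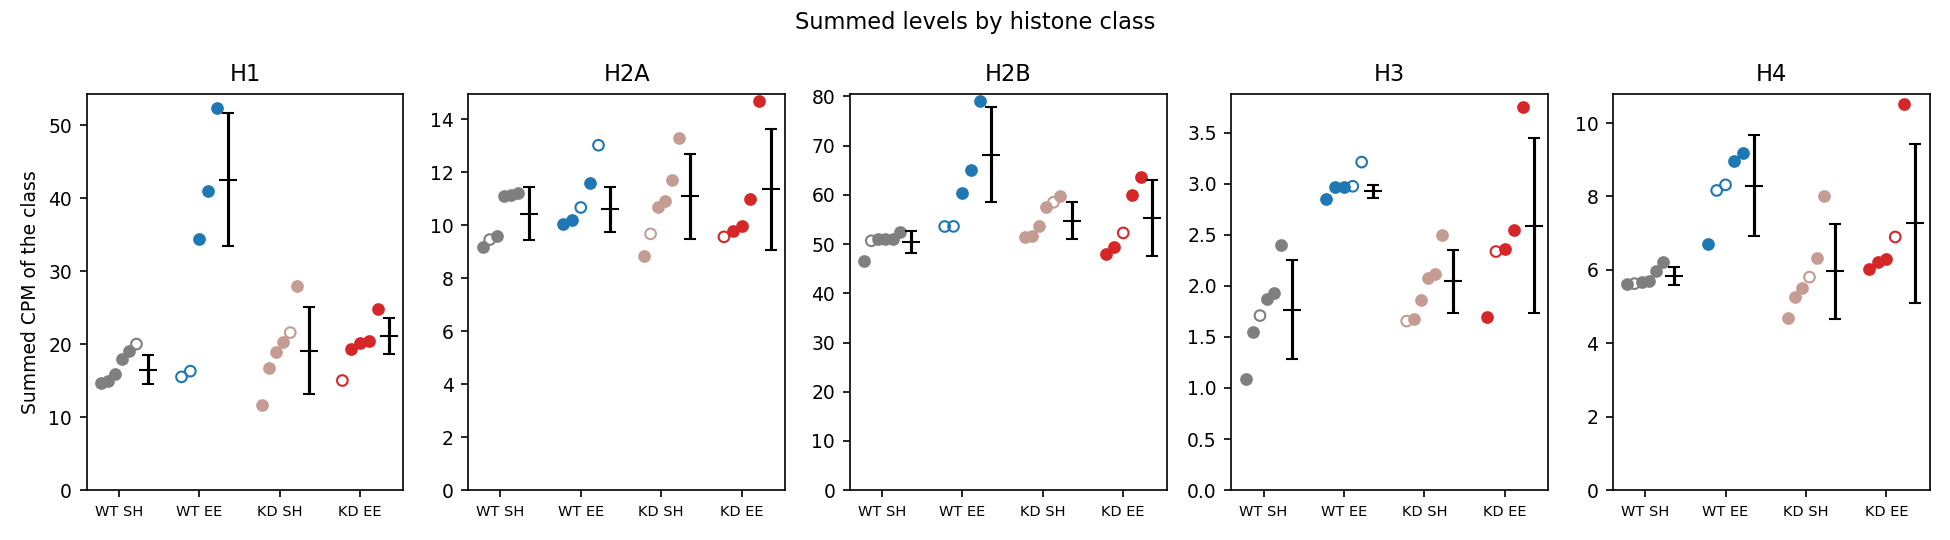
Summed CPM (y axis) of the histone genes of each class by library and group. Filled points are libraries the study used, open points those it removed, and black marks the mean and SD of the filled points. The 2 open WT EE points lie with WT SH for H1, at 15.5 and 16.3 CPM, and above every WT SH library for H3 and H4.

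Hist1h1c was set against the other genes directly. Its share of the summed CPM was 27.2%, 32.2% and 31.5% in WT EE libraries 16, 17 and 33A, and 16.5% and 15.7% in 31B and 35A. In WT SH it was between 16.8% and 22.3% (median 18.9%), in KD SH between 13.8% and 24.2%, and in KD EE between 16.9% and 22.8%. The other 17 genes summed to 87.9, 104 and 84.6 CPM in libraries 16, 17 and 33A and to 76.6 and 79.0 in 31B and 35A, against 63.5 to 71.0 in WT SH. All 5 WT EE libraries were therefore above WT SH for the sum of the other genes, but 3 of 5 for Hist1h1c. In the 17 libraries the log2 fold changes of the 15 others tested in WT ran from 0.02 (Hist3h2a) to 1.56 (Hist1h1e), with a median of 0.58, against 1.35 for Hist1h1c. In MSK1 KD they ran from -0.35 to 0.95, with a median of 0.09, against 0.13.

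Across the 22 libraries, the log2 CPM of Hist1h2bc, Hist1h1e and Hist1h4h had the highest Pearson r with Hist1h1c among the histone genes, 0.811, 0.779 and 0.682. Hist3h2a and Hist2h4 had r of -0.085 and -0.218. Over all 18482 genes tested, the 5 most like Hist1h1c were Odc1 (r = 0.925), Prelp (0.904), Stra6 (0.892), Slc38a3 (0.880) and Hspb6 (0.876). Odc1 codes for ornithine decarboxylase of polyamine synthesis, Prelp for a matrix proteoglycan, Stra6 for a receptor of retinol-binding protein and Slc38a3 for a glutamine transporter. These r are descriptions over 22 libraries that share groups and tissue makeup, as follows.

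Choroid plexus markers moved with housing in the 17 libraries, but in the 22 none was called, since 0 of all 18482 genes were called for housing in either genotype. Of 15 markers, among them Ttr and Clic6, 15 were called higher in EE in WT and 15 in MSK1 KD in the 17 libraries, with median log2 fold changes of 4.19 and 4.13, and none was at 0 in any of the 22 libraries. Of all 18701 genes, 651 in WT and 307 in MSK1 KD were called higher. The 15 markers summed to between 74.4 and 1971 CPM in WT SH, 79.5 and 5615 in WT EE, 53.6 and 3080 in KD SH, and 234 and 6034 in KD EE. Libraries 16, 17 and 33A of WT EE stood at 5531, 4319 and 5615 CPM, and libraries 31B and 35A at 81.2 and 79.5. KD EE library 36A had the highest sum of all, 6034 CPM. Its Hist1h1c, 23.6 CPM, was the highest of KD EE but below each of those 3 WT EE libraries. KD EE library 9 had the lowest of both in its group, 234 and 14.6 CPM. In WT SH, libraries 11 and 12 had the highest sums, 851 and 1971 CPM, and the highest Hist1h1c, 18.2 and 19.5 CPM. KD SH library 4, with the highest Hist1h1c of either MSK1 KD group at 26.5 CPM, had a sum of 201 CPM. In libraries 31B and 35A, with sums inside the range of WT SH, Hist1h1c was at 15.1 and 14.7 CPM, and Hist1h2be, at 6.97 and 7.36, was above every WT SH library. Library 35A had the highest share of fragments outside single genes of the 22, 18.6%. All libraries with a letter in their number, 31B and 35A among them, were EE, so the lettered set has no SH library beside it.

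With a choroid plexus score as covariate, no histone gene was called by edgeR in WT in the 17 libraries, nor was any other gene (0%), and 0 of 16 had an unadjusted p under 0.05, against 3.74% of all genes. The log2 fold change of Hist1h1c was then 0.60 and the median of the 16 was 0.18. The score, a mean log2 CPM of the markers, did not overlap between SH and EE in the 17 libraries. It reached at most 3.56 in WT SH and 1.93 in KD SH, and at least 5.70 in WT EE and 3.78 in KD EE. A fit of these libraries can therefore hardly separate the score from housing, and a loss of calls was likely for any gene. Over the 22 libraries with the score, the log2 fold change of Hist1h1c was 0.40 (adjusted p 0.572 by edgeR) and that of Hist1h2be 0.64 (adjusted p 0.304). No histone gene and no other gene (0%) was called, and 8 of 15 had an unadjusted p under 0.05, against 7.77% of all genes. Other lists also rose in WT in the 17 libraries, with 5 of 6 meningeal, 4 of 5 blood and 3 of 6 ependymal markers called higher, against 3.48% of all genes. The meningeal sum lay between 75.9 and 99.8 CPM in WT SH and between 69.2 and 143 in WT EE, and the blood sum between 37.2 and 49.7 and between 29.4 and 128. The ependymal sum lay between 24.6 and 30.4 CPM in WT SH and between 18.1 and 44.4 in WT EE. None of these markers was at 0 in any of the 22 libraries. No endothelial, microglial, oligodendrocyte, astrocyte or thalamic marker was called in WT. Called lower were 1 of 6 markers of immature neurons and 1 of 8 of hippocampal neurons, against 13 of all 18701 genes. Of 5 striatal markers 1 was called higher. The part of these lists in the histone result was not tested. In bulk tissue a change in the share of a cell type cannot be told apart from a change in RNA per cell.

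**Figure D4:**
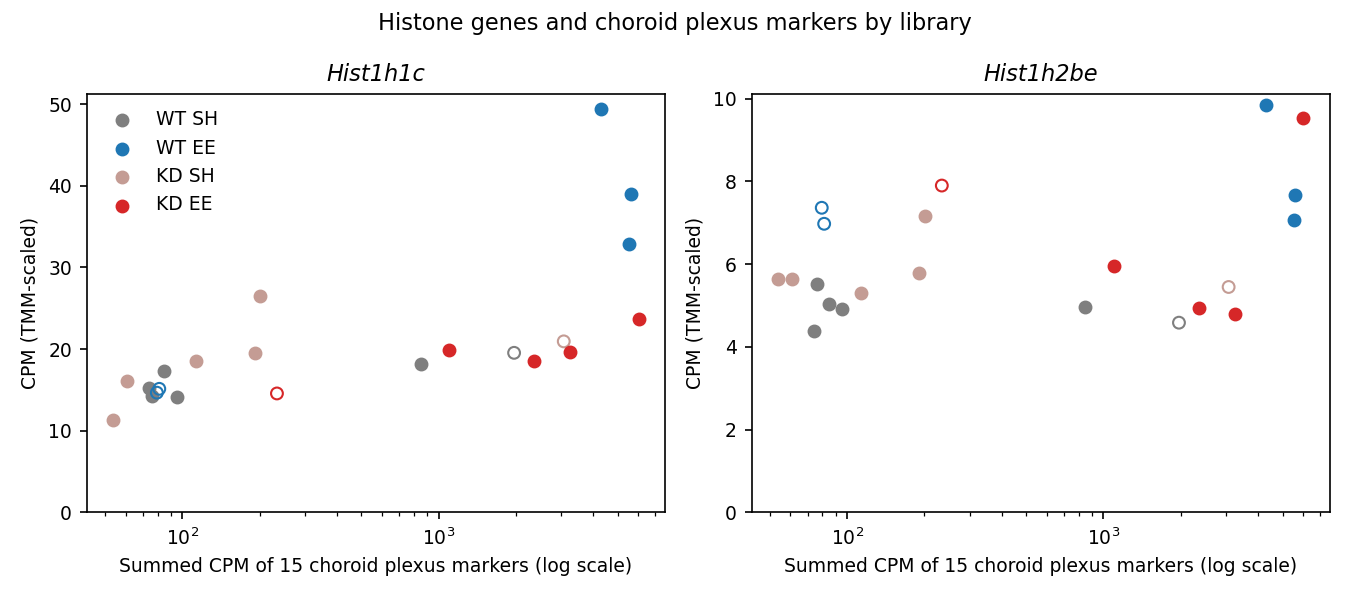
CPM of Hist1h1c (left) and Hist1h2be (right) against the summed CPM of 15 choroid plexus markers (log scale) in the 22 libraries, colored by group, with open points for removed libraries. The 3 WT EE libraries above 30 CPM of Hist1h1c have marker sums of 4319 to 5615 CPM. KD EE library 36A, at 6034 CPM, has 23.6 CPM of Hist1h1c, the highest of KD EE.

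The other genes of histone supply moved little in the 17 libraries. Of 11 replication-independent histone genes, none was called in WT, and the median log2 fold change was 0.05. H1f0, the linker histone of non-dividing cells, had 0.28 ± 0.07 (SE) with an adjusted p of 0.0236, under the fold threshold, with 121 ± 9.02 CPM (SD) for the 3 WT EE and 99.2 ± 4.93 for the 5 WT SH libraries, and in the 22 libraries 0.11 ± 0.08. H3f3b, which codes for H3.3, had 0.10 ± 0.07. Of 18 genes of histone mRNA processing and transcription none was called (median -0.04), with Mblac1, a nuclease of the histone 3′ end, at 0.40 ± 0.18 (adjusted p 0.331) and Lsm11, of the U7 particle, at -0.12 ± 0.10.

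Of 20 histone chaperones none was called in WT (median -0.01). Npm1 had a log2 fold change of -0.20 ± 0.10 (adjusted p 0.358) and Hjurp, the chaperone of centromeric H3, 0.05 ± 0.08. Of 27 DNA replication and cell cycle genes tested none was called (median 0.04), with the helicase subunit Mcm2 at 0.48 ± 0.15 (adjusted p 0.0857) and the replication clamp Pcna at 0.08 ± 0.08. Of 5 kinases that act on histone H3 none was called. Rps6ka5, which codes for MSK1, had -0.27 ± 0.08 in WT (adjusted p 0.0732) and -0.24 ± 0.08 in MSK1 KD (adjusted p 0.151), from 25.4 ± 2.03 CPM in WT SH and 21.1 ± 0.850 in WT EE. Since the allele is a point mutation, the level of the transcript, 26.1 ± 1.49 CPM in KD SH, does not check the genotype. Vrk1, another histone kinase, had -0.20 ± 0.10 in WT.

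None of these 5 lists had a gene called by edgeR in any of the 5 comparisons over the 17 libraries. In WT, EE against SH, an unadjusted p under 0.05 was reached by 1 of the 11 replication-independent histone genes, 1 of the 18 processing genes, 3 of the 20 chaperones, 3 of the 27 replication genes and 1 of the 5 kinases, against 13.7% of all genes.

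The 2 libraries that failed quality control were read apart. In library 33B (WT EE), with 18667300 counts on genes and 54.1% of fragments outside single genes, against at most 18.6% in the 22 libraries, the 51 symbols under the count rule summed to 20.5 CPM without TMM scaling (382 counts), against 1.03 to 3.14 in the 22. Of these symbols 16 stood above all 22 libraries, as did 5 of the 18 genes, while 3 of the 18 stood below all 22. How many of all genes stood outside that range in library 33B was not counted, so these counts do not set histone genes apart. The 5 were Hist1h1e, Hist1h2bg, Hist1h4c, Hist1h4h and Hist1h4k, and the 3 were Hist3h2a, Hist1h2bc and Hist2h2be. Hist1h4c reached 3.70 CPM, against 0 to 0.332, and Hist1h1e 7.12, against 0.275 to 2.97. Hist1h1c, with 411 counts, lay within the range of the 22 libraries. Library 34B (KD EE) held 16442 counts on genes, of which 2 fell on the 18 genes, so that levels were not detectable at this depth.

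**Figure D5:**
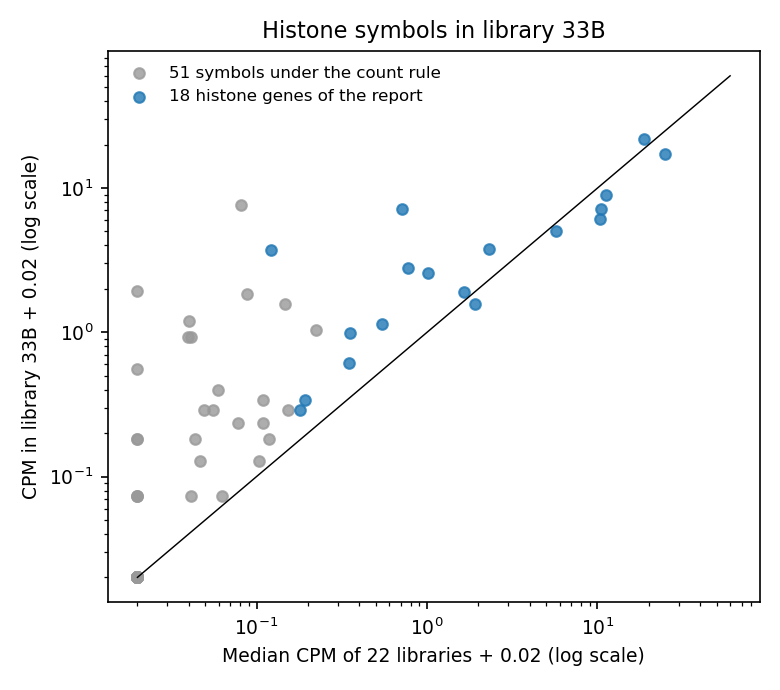
Unscaled CPM of 69 histone symbols in library 33B (y axis) against their median in the 22 libraries (x axis), both plus 0.02 and on log scales, with the line of equality. Grey points are the 51 symbols under the count rule, of which 16 lie above all 22 libraries, and blue points are the 18 genes. The share of all genes above all 22 libraries was not counted.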

How the data were processed

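The authors trimmed the reads, used STAR 2.5 and GRCm38 for alignment, and counted unique alignments per gene with HTSeq without regard to strand. Per the labels the libraries were polyadenylated RNA, and the deposited values are raw counts per gene, without normalization. A series table of scaled values was not used. Counts were tested in R 4.3.3 with the edgeR 4.0.16 quasi-likelihood test (filterByExpr, TMM, a mean for each of 4 groups, Benjamini–Hochberg over all genes tested). Calls needed an adjusted p up to 0.05 and a log2 fold change of at least 0.38 in either direction. The 17 libraries were the main set, as in the study, with 22 and 24 libraries, DESeq2 1.42.0 and other settings as alternatives. CPM were scaled by TMM over the 22 libraries. The fit was tested on simulated data. Exact permutation tests were two-sided.

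Genes, lists and rules were chosen with earlier results of these data known. Named were Hist1h1c, each gene called, in each class the 2 with the highest mean CPM, in each comparison the 3 with the lowest p, those next to the count rule, from each list the genes called or else 2 by lowest p, and the 5 genes most like Hist1h1c. Others are named to account for all 18. Gene models were those of GENCODE M21, which may differ from the authors' annotation release.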

Additional observations from a re-analysis of the deposited data

Results flagged for a closer look

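Of 72 sets of libraries checked, each 1 histone gene in 1 group, 10 held a library whose CPM stood far from the rest of its group by Dixon's criterion, over 8 genes. Chance flags about 1 in 20 groups. In WT EE this was library 17, with 9.85 CPM of Hist1h2be (the others 6.97 to 7.67), 0.921 of Hist1h2bg (0.438 to 0.541) and 1.96 of Hist1h4h (0.661 to 0.977). In KD SH it was library 4, with 1.51 CPM of Hist1h1e (the others 0.271 to 0.703) and 7.17 of Hist1h2be (5.30 to 5.78), and library 3, with 0.316 of Hist1h2bn (0.0838 to 0.168). In KD EE it was library 7 for Hist3h2a, 14.2 CPM (9.45 to 10.8), library 9 for Hist1h2bn, 1.78 (the others at most 0.303), and library 36A for Hist1h4c, 0.335 (0 to 0.0969). In WT SH it was library 14 for Hist2h4, 2.89 CPM (2.05 to 2.24).

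Library 33B, which failed the study's quality control and entered no main comparison, held more of some histone mRNAs than any of the 22 libraries. How often this was so among all genes was not counted. The 51 symbols under the count rule summed to 20.5 unscaled CPM there. Hist1h1e stood at 7.12, Hist1h2bg at 1.12, Hist1h4c at 3.70, Hist1h4h at 2.79 and Hist1h4k at 2.57 unscaled CPM, with highest values in the 22 libraries of 2.97, 0.950, 0.332, 2.02 and 2.07.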

How the results depend on the processing

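No paired analysis was possible because the library numbers are not shared between groups. In WT, EE against SH, the 4 calls fell to 0 with 22 libraries, with 24, and with the choroid plexus score in 17 or in 22 libraries, where 0%, 0.00547%, 0% and 0% of all genes were called. With 1 library left out they ranged from 1 (without WT EE library 17, 2.68% of all genes) to 5 (without WT SH library 13, 3.09%). The log2 fold change of Hist1h1c in WT was 0.87 with 22 libraries, 0.88 with 24, 0.60 and 0.40 with the score in 17 and in 22 libraries, 0.72 as the difference in the exact permutation test of 22 libraries, and 1.18 to 1.48 with 1 library left out. In MSK1 KD it turned negative with the score, -0.51 in 17 and -0.49 in 22 libraries, neither called, and was 0.02 to 0.30 with 1 library left out. Hist1h1e in WT was at -0.0087 with the score in 17 libraries. In those 17 the score did not overlap between SH and EE in either genotype, so the fit can hardly separate it from housing. Between WT EE and KD EE, the histone genes called were 1 by DESeq2 (0.0963% of all genes), 2 with no filter on low counts (0.073%), 1 in a fit of those groups alone (0.0111%), and 0 to 1 with 1 library left out. Hist1h1c was called there at 0.98 by DESeq2, 0.99 with no filter and 0.98 in those groups alone, and ranged from 0.81 to 1.10 with 1 library left out, called without KD SH library 4 (0.0107% of all genes) or 5 (0.0161%). The interaction had 1 call by DESeq2 (0.0107% of all genes), 1 with no filter (0.0292%) and 0 to 1 with 1 library left out. That was Hist1h1c, at 1.21 and 1.22, from 1.04 to 1.34 with 1 library left out, and called without KD SH library 5 (0.00535%). WT SH over KD SH it was -0.36 to -0.07 with 1 library left out. The cause of these changes was not tested. Returning library 31B or 35A, an alternative chosen after seeing the data, left Hist1h1c called in WT at 1.11 and 1.10. Without the lettered libraries, which left libraries 16 and 17 in WT EE, 4 of 16 histone genes were called in WT, as were 706 of 18901 genes. Without the genes with under 50% unique windows, the mean H3 sums were 0.359, 0.648, 0.238 and 0.468 CPM in WT SH, WT EE, KD SH and KD EE. Counts of Hist1h2ac, Hist1h2bn and Hist1h4c were near the floor and limit what could be seen.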
